A study of Mus musculus with 32 samples.

Results

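The IL-23 and IL-12 family cytokine subunits are encoded by 5 genes, Il23a, Il12a, Il12b, Il27 and Ebi3, and were followed here across macrophages of mouse tumours. The genes were chosen by the low level of Il23a in tumours of Myd88-/- hosts, so the values of all members in that comparison describe the choice and carry no test. On the HT_MG-430_PM chip 4 of the 5 members were among 17097 named genes. There, no probe set with a single symbol was named Il27. On the Mouse Gene 2.0 ST chip all 5 were among 22180 named genes. The probe sets on the first chip were 1419529_PM_at for Il23a, 1425454_PM_a_at for Il12a, 1419530_PM_at for Il12b, with 1449497_PM_at as its other probe set, and 1449222_PM_at for Ebi3. On the Mouse Gene 2.0 ST chip they were 17246091 for Il23a, 17398218 for Il12a, 17248654 for Il12b, 17496338 for Il27 and 17338642 for Ebi3, with 17346074 as its other probe set.

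The cytokines of this family are pairs of an alpha and a beta chain made by myeloid cells and read by lymphocytes. Il12b encodes the shared beta chain p40, which joins the p35 chain of Il12a to form IL-12 and the p19 chain of Il23a to form IL-23. Ebi3 encodes the beta chain that joins the p28 chain of Il27 to form IL-27, and it can also pair with p35 to form IL-35. IL-12 drives interferon-gamma production through STAT4, IL-23 sustains IL-17-producing lymphocytes through STAT3, and IL-27 can limit or direct T cell responses. In macrophages and dendritic cells the subunit genes are induced by Toll-like receptors, many of which signal through the adaptor Myd88.

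Expression was measured on 32 arrays in 12 groups. Tumour-associated macrophages enriched with magnetic beads for CD11b came from neuroblastomas of Th-MYCN transgenic mice (3 arrays), in which MYCN is driven in cells of the sympathetic lineage, and from EG7 tumours of WT mice (3 arrays). EG7 is a transplantable mouse thymoma line derived from T lymphocytes that expresses ovalbumin. Another bead-enriched set came from EG7 tumours in Myd88-/- recipients, which lack Myd88 in every host cell, and in WT recipients (5 arrays each). Populations A and C were sorted from EG7 tumours, with 2 arrays for each population and genotype. Population A was CD11b+, Ly6G-, Ly6C+ and MHCII-, and population C was CD11b+, Ly6C- and MHCII+. The recipients were TNFR1-/-; Myd88flox/flox; Tie2-Cre (double knockout), Myd88flox/flox; Tie2-Cre, TNFR1-/- and WT. Tie2-Cre acts in endothelial as well as blood cells, and each genotype is that of the recipient, not of the transplanted EG7 cells. The labels give no ages and do not say whether an array held 1 animal or a pool, so the p-values measure the spread between arrays, which may be technical.

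The labels were checked first. In the sorted cells Myd88 lay at 7.49 to 8.76 log2 signal on the 8 arrays with Myd88 deleted, against 9.22 to 10.05 on the 8 arrays with Myd88 intact. Tnfrsf1a, which encodes TNFR1, lay at 7.51 to 8.20 on the 8 arrays labelled TNFR1-/-, against 7.81 to 8.55 on the 8 others, and these ranges overlapped. Whether the probes lie in the deleted part of either gene was not tested. In the bead-enriched cells Myd88 lay at 7.47 to 7.83 in Myd88-/- hosts, against 8.11 to 8.57 in WT hosts. Itgam, which encodes CD11b, was measured at 7.14 to 7.57 in Myd88-/- hosts and at 7.60 to 7.98 in WT hosts, and at 6.75 to 8.10 in neuroblastoma and 8.16 to 8.60 in EG7. Neuroblastoma array 2 stood apart in markers of other cells, and the members' values in that comparison are given with and without it. Ly6c2 lay at 11.31 to 12.93 in population A and at 7.88 to 9.99 in population C. H2-Aa, a gene of MHC class II, lay at 8.77 to 11.61 in population A and at 11.94 to 12.37 in population C.

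Promoter sequence, from 250 bases before to 50 bases after the start, was found for 3 of the 5 members, Il12a, Il12b and Ebi3, in the RefSeq table of GRCm38.p6. They are shown because Il12a was the member called after TNFR1 loss. Il12b and Ebi3, the 2 beta chains, had a gene of the NF-kB family (Rel) and of the AP-1 family (Batf), respectively, among their 5 most alike genes. That likeness was taken over the 10 arrays of the Myd88 experiment, on which the family was chosen. Rel and Batf were picked from lists of 5 given below, and whether they act on these genes was not tested here. Capitals mark matches, on either strand and with overlaps merged, to an NF-kB-like pattern of GGG and CC separated by any 5 bases. The Il12a promoter is that of the second of 2 annotated starts, chr3:68691174-68691473, the Il12b promoter is chr11:44399813-44400112, and the Ebi3 promoter is chr17:55952373-55952672, all on the plus strand.
Il12a: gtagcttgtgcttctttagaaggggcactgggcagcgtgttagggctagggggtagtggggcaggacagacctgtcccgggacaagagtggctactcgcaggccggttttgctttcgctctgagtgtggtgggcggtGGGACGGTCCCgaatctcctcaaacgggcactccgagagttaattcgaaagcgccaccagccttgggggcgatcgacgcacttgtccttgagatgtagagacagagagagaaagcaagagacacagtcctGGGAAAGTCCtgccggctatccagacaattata
Il12b: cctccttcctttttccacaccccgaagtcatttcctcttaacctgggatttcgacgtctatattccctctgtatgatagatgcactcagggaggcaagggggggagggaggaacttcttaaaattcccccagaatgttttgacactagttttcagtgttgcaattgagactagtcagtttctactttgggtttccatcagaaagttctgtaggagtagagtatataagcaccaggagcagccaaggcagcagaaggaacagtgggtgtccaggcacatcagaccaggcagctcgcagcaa
Ebi3: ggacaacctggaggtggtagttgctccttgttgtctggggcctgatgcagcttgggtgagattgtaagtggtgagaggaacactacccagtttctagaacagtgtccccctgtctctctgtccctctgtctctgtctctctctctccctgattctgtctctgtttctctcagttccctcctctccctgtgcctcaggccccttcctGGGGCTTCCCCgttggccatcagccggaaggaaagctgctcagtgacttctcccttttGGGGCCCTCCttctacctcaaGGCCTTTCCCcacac
The Il12a window held 3 matches in 2 stretches and the Ebi3 window 6 matches in 3 stretches. The Il12b window and the window of the first Il12a start each held 0. Sites that depart from GGG and CC at that spacing were not counted, so 0 matches do not show that NF-kB sites are absent. The pattern is loose, and 50.8% of all 32851 promoters of that length held it. The AP-1 motif TGANTCA, an interferon-response-like pair of GAAA separated by any 2 bases, and the TATA box TATAAA were also searched on both strands. None of the 4 windows held one of them, against 7.81%, 3.44% and 13.6% of all promoters for these 3 motifs in the order given. A match, or none, says only what letters stand in the window.

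In the tumour models the question was which genes differ between macrophages of unlike tumours. No member differed between neuroblastoma and EG7 macrophages at an adjusted p under 0.05 in limma, against 14.7% of the 12577 genes tested. At an unadjusted p under 0.05 there was 1 of 4 members, Ebi3, against 30.1% of all genes. All differences here are neuroblastoma minus EG7 on the log2 scale, with the standard error after ±.

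Il23a, the chain specific to IL-23, had log2 signals of 5.77, 7.68 and 6.67 in neuroblastoma macrophages, against 7.68, 8.25 and 7.38 in EG7 macrophages. The groups overlapped at the highest neuroblastoma array, and the difference was -1.06 ± 0.49 (adjusted p = 0.200, limma). Ebi3 had 7.91, 8.83 and 8.08 in neuroblastoma macrophages, against 9.16, 8.98 and 8.94 in EG7 macrophages. Every Ebi3 value of the neuroblastoma arrays was below every EG7 value, as for 17% of all genes, and the difference was -0.75 ± 0.26 (adjusted p = 0.105, limma). Il12b, the shared chain, had 3.69, 8.02 and 6.63 in neuroblastoma macrophages, against 5.19, 6.81 and 5.59 in EG7 macrophages. Its neuroblastoma values enclosed the EG7 values, and the difference was 0.25 with a 95% interval of -2.29 to 2.79. The other Il12b probe set, not used in the test, had 3.85, 7.31 and 6.13 in neuroblastoma macrophages, against 4.51, 5.69 and 4.64 in EG7 macrophages, and here too the neuroblastoma values enclosed the EG7 values. Il12a had 3.94, 4.83 and 3.65 in neuroblastoma macrophages, against 3.89, 4.48 and 4.08 in EG7 macrophages. These values were mixed, with a difference of -0.01 ± 0.33.

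Neuroblastoma array 2 held the highest neuroblastoma value of all 4 members. Its 6 natural killer markers averaged 6.60, against 3.27 on array 1 and 4.06 on array 3. Its 5 B lymphocyte markers averaged 6.18, against 3.46 and 5.13, and its 8 monocyte markers averaged 10.59, against 9.33 and 8.20 on these 2 arrays. The 9 dendritic cell markers differed less, at 6.81 on array 2 and at 6.62 and 6.54 on the others. Because array 2 held these highest values, leaving it out had to lower each difference. Without array 2, Il23a and Ebi3 were called lower in neuroblastoma (Il23a -1.55, adjusted p = 0.0335, and Ebi3 -1.03, adjusted p = 0.0103, limma), and Il12b turned to -0.70. Il12a differed by -0.36 without array 2 (adjusted p = 0.343). Of the 6 fits that left out 1 array, 1 called Il23a and 1 called Ebi3, with adjusted p up to 0.424 and 0.295 (limma). Tumour cells differed by design between the models. All 9 neuroblastoma markers were called higher in neuroblastoma, with a mean of 8.43 to 9.44 there, against 3.66 to 3.74 in EG7. Of 10 T lymphocyte and EG7 markers tested 7 were called lower, with a mean of 4.34 to 5.65 in neuroblastoma, against 7.48 to 7.81 in EG7. Of 6 endothelial markers 5 were called higher in neuroblastoma, among them Kdr (2.51 ± 0.22), and the mean of the 6 lay at 8.0 to 8.98 in neuroblastoma, against 6.25 to 6.92 in EG7. Of 5 fibroblast markers tested 2 were called higher, Mgp (4.24 ± 0.30) and Pdgfrb (1.85 ± 0.31), and the mean of the 6 lay at 8.74 to 9.92 in neuroblastoma, against 7.80 to 8.14 in EG7. Of 8 dendritic cell markers tested 3 were called higher, Dpp4 (1.35 ± 0.33), Fscn1 (1.22 ± 0.31) and Kit (1.16 ± 0.30). The other 5 had differences below 0, with 0 called lower, and the median of the 8 was -0.12. Among these 5, Itgax (-1.07 ± 0.34) and Cd209a (-2.49 ± 0.88) were lower in neuroblastoma without overlap. The part of other cells in the members' values was not tested.

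**Figure D1:**
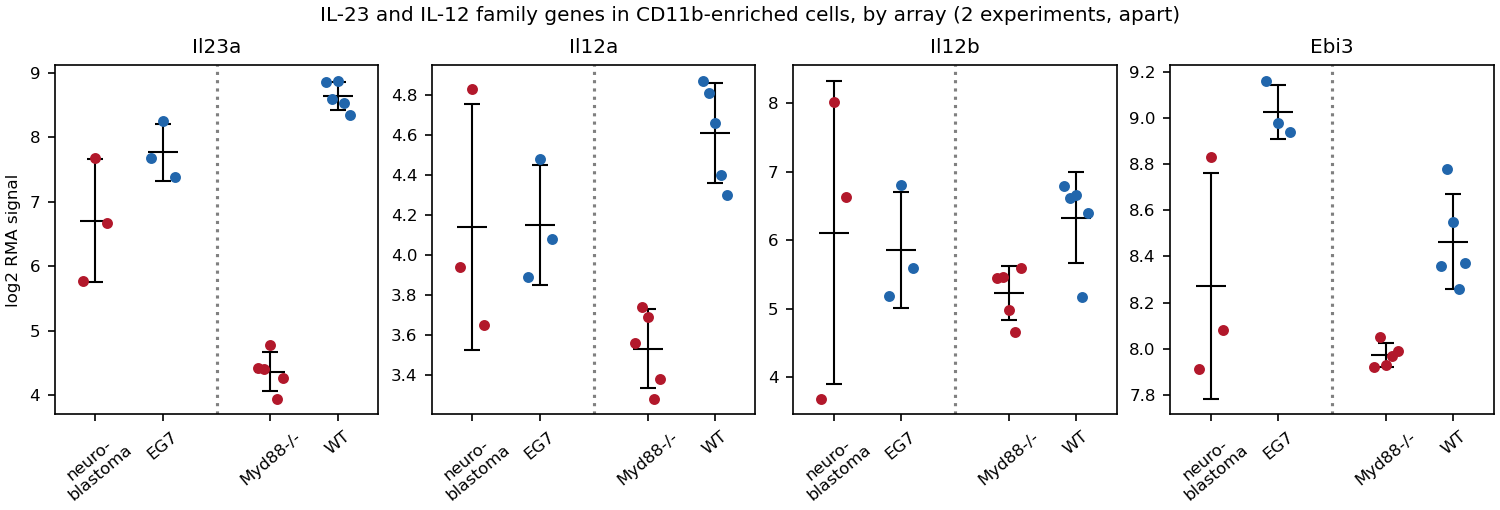
Log2 RMA signal (vertical axes, scales differ) of Il23a, Il12a, Il12b and Ebi3 in CD11b-enriched cells, 1 point per array, with the mean and SD as bars. Left of the dotted line are neuroblastoma and EG7 (3 arrays each), and right of it are Myd88-/- and WT hosts of EG7 tumours (5 each), where all Il23a values in Myd88-/- hosts are below 5 and all in WT hosts above 8.

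Around the subunits, few pathway genes differed between the tumours. Of 8 receptor and signal transducer genes tested 0 were called, and the 2 of smallest p were Jak1 (0.19 ± 0.17) and Il12rb1, the receptor chain shared by IL-12 and IL-23 (-0.18 ± 0.17). At an unadjusted p under 0.05 there were 0 of the 8. Of 21 transcription factors known to act on the subunit genes (median difference 0.06, against -0.01 over all genes tested) 1 was called, Atf3, a stress-induced repressor of cytokine genes, which was higher in neuroblastoma by 0.70 ± 0.18 (adjusted p = 0.0462, limma). That call was lost without any 1 of the 6 arrays. The lymphocyte products downstream of the family (7 tested), the IL-6 group (5 tested) and other Myd88 or TNF driven cytokines (11 tested) had 0 calls each in limma, with 0, 0 and 1 genes at an unadjusted p under 0.05, and their genes of smallest p included Ccr6 (1.20 ± 0.54, adjusted p = 0.194), Il6 (0.66 ± 0.32, adjusted p = 0.222) and Il18 (1.16 ± 0.39, adjusted p = 0.0974).

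Tumours in Myd88-/- hosts addressed the part of Toll-like receptor and IL-1 receptor signalling in these macrophages. Il23a had log2 signals of 4.43, 4.41, 4.78, 3.95 and 4.27 in Myd88-/- hosts, against 8.85, 8.60, 8.87, 8.53 and 8.35 in WT hosts. The groups were far apart, with a difference of -4.27 ± 0.15 on the log2 scale, or 19.3-fold lower in Myd88-/- hosts. The family was selected on this value. Il12a had 3.56, 3.74, 3.69, 3.28 and 3.38 in Myd88-/- hosts, against 4.87, 4.81, 4.66, 4.40 and 4.30 in WT hosts, a difference of -1.08 ± 0.13 with no overlap.

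Il12b had 5.45, 5.46, 4.98, 4.66 and 5.59 in Myd88-/- hosts, against 6.80, 6.62, 6.66, 5.17 and 6.40 in WT hosts. WT array 4 lay inside the Myd88-/- range, the other WT arrays lay above it, and the difference was -1.10 ± 0.28. A second Il12b probe set had a mean of 5.02 over the 10 arrays. Ebi3 had 7.92, 8.05, 7.93, 7.97 and 7.99 in Myd88-/- hosts, against 8.36, 8.78, 8.55, 8.26 and 8.37 in WT hosts. It had the smallest difference of the 4 members, -0.49 ± 0.10, with no overlap. The values of 3 of the 4 members in Myd88-/- hosts were all below those in WT hosts, as were those of 1.68% of the 11915 genes tested, and nothing is read from that count because the members were chosen on this contrast. In a bulk sample, fewer cells of a type and less RNA per cell cannot be told apart.

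Beside the members, 1.18% of the 11915 genes were called lower in Myd88-/- hosts. The gene lists that follow were chosen with earlier results of these data known, so their counts describe this contrast and nothing more is read from them. Of 21 transcription factors known to act on the subunit genes 3 were called lower and 0 higher in limma, with a median difference of -0.23, against 0.01 over all genes tested. They were Nfkbiz, the nuclear IkB protein that cooperates with NF-kB (-1.73 ± 0.12), Batf, an AP-1 family factor (-0.60 ± 0.10), and Nfkb2, an NF-kB subunit (-0.44 ± 0.10), which lost its call without 8 of the 10 arrays in turn. Of 11 other Myd88 or TNF driven cytokines (median -0.63) 8 were called lower, among them Csf3, a neutrophil growth factor (-2.88 ± 0.34), Tnf (-1.38 ± 0.08), Il6 (-0.94 ± 0.16) and the prostaglandin enzyme gene Ptgs2 (-0.63 ± 0.11). In the IL-6 group 2 of 5 were called lower, Il6 and Lif (-0.97 ± 0.13). Of 8 lymphocyte products downstream of the family 1 was called lower, Csf2, which encodes GM-CSF (-0.94 ± 0.20), a call lost without 8 of the 10 arrays in turn. Csf2 is also counted among the 8 called Myd88 or TNF driven cytokines, so it is no separate call.

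The receiving end of the family gave no call in limma at the 0.05 level. Of 8 receptor and transducer genes tested 0 passed, with 2 at an unadjusted p under 0.05, and the 2 of smallest p were the kinase genes Jak2 (-0.41 ± 0.12, adjusted p = 0.139) and Tyk2 (-0.22 ± 0.10, adjusted p = 0.389). Markers of other cells differed as well. Of 8 monocyte markers 5 were called lower, and their mean lay at 8.13 to 8.36 in Myd88-/- hosts, against 8.85 to 9.04 in WT hosts. Of 8 dendritic cell markers tested 1 was called lower, Dpp4, and the mean of the 9 on the chip lay at 5.58 to 5.76 in Myd88-/- hosts, against 5.61 to 6.02 in WT hosts, with the defining marker Xcr1 above the filter on 0 arrays. Of 10 neutrophil markers 0 were called (2 at an unadjusted p under 0.05), with means of 6.35 to 7.66 in Myd88-/- hosts and 6.37 to 7.92 in WT hosts. The difference between 3' and 5' actin control probe sets, a measure of RNA quality, averaged 0.692 in Myd88-/- hosts and 0.600 in WT hosts. The part of these in the members' values was not tested.

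The genes most like each member were not all the same. Over the 10 arrays, which share 2 groups far apart, Il23a was most like Tnf (Pearson r = 0.988), Spata13, Dusp2, Nfkbiz and Lcp2. Within groups, over deviations from the group means, its r with Tnf was 0.258, so the likeness of Il23a to Tnf lay mostly between the groups. Il12a was most like Lcp2 (r = 0.976, 0.785 within groups), Rab11fip1, Schip1, Birc2 and Orai2. Il12a and Il23a correlated at 0.961, and at 0.773 within groups.

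Il12b was most like Rapgef2 (r = 0.977, 0.961 within groups), Rel (r = 0.958, 0.910 within groups), Cflar, Arhgef3 and Serpinb2. Rel encodes c-Rel, an NF-kB subunit known to act on Il12b. Rel lay at 7.52 to 8.08 in Myd88-/- hosts, against 7.81 to 8.86 in WT hosts. Its difference was -0.62 ± 0.18 and was not called (adjusted p = 0.129, limma). The WT array with the lowest Il12b value, array 4, was also the lowest WT array for Rel, at 7.81. It was the lowest for H2-Aa as well, at 12.52, against 12.75 to 13.20 on the other WT arrays. Its dendritic cell marker mean was the lowest too, at 5.61, against 5.83 to 6.02. Its monocyte marker mean of 8.88 was not the lowest. The part of other cells in the likeness of Il12b and Rel was not tested. Ebi3 was most like Vamp3 (r = 0.966, 0.904 within groups), Batf (r = 0.964, 0.832 within groups), Tmem176a, Ccdc88b and Tnfrsf1b. Batf lay at 6.40 to 6.66 in Myd88-/- hosts, against 6.95 to 7.39 in WT hosts. Between members, r within groups was 0.342 for Il12b with Il23a and 0.0533 for Ebi3 with Il23a. All these correlations are descriptions of 10 arrays of 1 experiment.

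**Figure D2:**
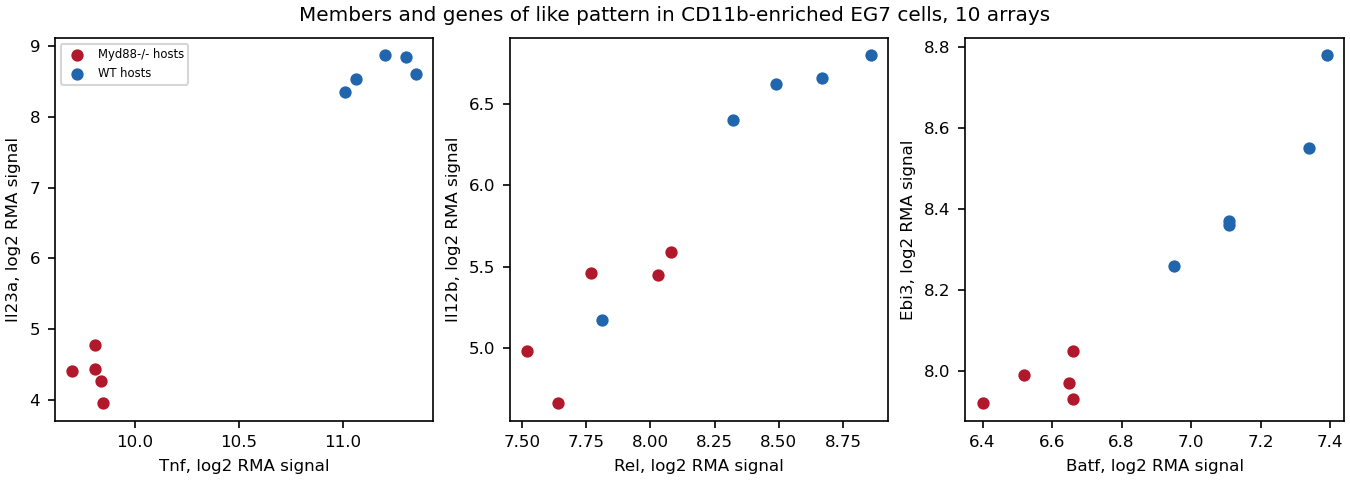
Log2 RMA signal of Il23a against Tnf, Il12b against Rel and Ebi3 against Batf on the 10 arrays of CD11b-enriched EG7 cells, with Myd88-/- hosts in red and WT hosts in blue. Il23a forms 2 separate clusters, whereas Il12b and Rel run along 1 line through both groups, with the WT array at 5.17 for Il12b beside the Myd88-/- arrays.

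The sorted populations asked which cells, and which of the 2 receptor pathways, go with each gene. Il23a, so variable in the bead-enriched cells, was nearly flat here. It lay at 5.22 to 5.83 log2 signal on all 16 arrays, between the 47.2nd and 60.2nd percentile of all probe sets on its array. Il12b lay at 4.72 to 5.56 and was above the filter (the 40th percentile) on 13 of 16 arrays. Il12a lay at 5.12 to 6.17, Il27 at 7.00 to 7.61 and Ebi3 at 7.19 to 8.18. The Il12a values stood between the 43.1st and 68.3rd percentile of all probe sets on their arrays. Il27 and Ebi3 were at or above the 80.9th and the 83.2nd percentile on every array. A second Ebi3 probe set, at 4.60 to 4.99, was above the filter on 1 array and was not tested. Levels of different genes, and of the 2 chips, are not comparable probe by probe.

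**Figure D3:**
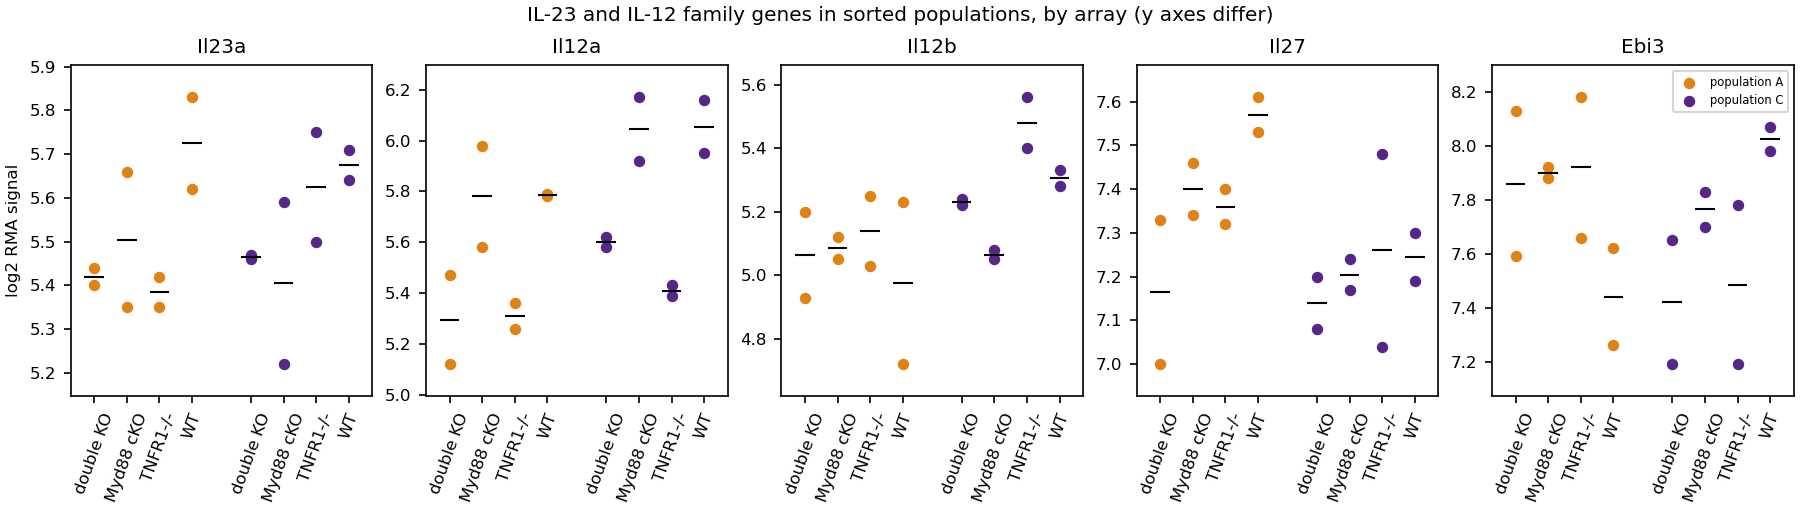
Log2 RMA signal (vertical axes, scales differ) of the 5 members in sorted populations A (orange) and C (purple), 1 point per array and a line at the mean of 2, with the double knockout, Myd88flox/flox; Tie2-Cre, TNFR1-/- and WT hosts from left to right. Il12a is lower in both TNFR1-deficient genotypes than in the other 2 within each population.

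Loss of TNFR1, the main receptor for tumour necrosis factor, went with a lower level of Il12a in both populations. In population A, Il12a had 5.12 and 5.47 in the double knockout and 5.36 and 5.26 in TNFR1-/- hosts, against 5.98 and 5.58 with Myd88 alone deleted and 5.78 and 5.79 in WT hosts. In population C it had 5.62 and 5.58 in the double knockout and 5.39 and 5.43 in TNFR1-/- hosts, against 6.17 and 5.92 with Myd88 alone deleted and 6.16 and 5.95 in WT hosts. Within each population every TNFR1-deficient array was below every array with TNFR1. Il12a fell by 0.51 ± 0.08 over both populations (adjusted p = 0.00575, limma, 8 arrays against 8), or 1.43-fold, while 1.27% of the 16524 genes were called lower. It was the only member called. Its values without TNFR1, 5.12 to 5.62, lay near the array medians of 5.31 to 5.50.

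In C alone the difference of Il12a was -0.55 ± 0.12 (adjusted p = 0.0432, limma), with 0.617% of genes called lower. In A alone it was -0.48 ± 0.12 (adjusted p = 0.110, limma), with 0.139% called lower. Groups that did not overlap, lower, made up 3.37% of all genes in C and 1.57% in A. The difference between the effects in A and C was 0.07 with a 95% interval of -0.30 to 0.43 (adjusted p = 0.975). In that contrast 0 of 5 members were called in limma, and 0.103% of all genes were called. Ebi3 was the 1 of 5 members at an unadjusted p under 0.05, against 6.5% of all genes. Fitted without population C, population A alone did not call Il12a (-0.48, adjusted p = 0.489). The departure of the double knockout from the sum of the 2 single effects was 0.10 ± 0.17 for Il12a (adjusted p = 0.927), with 0 of 5 members and 0.0605% of all genes called in limma. At an unadjusted p under 0.05 there were 0 of 5 members, against 7.94% of all genes.

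The other members did not pass after TNFR1 loss. Il23a differed by -0.10 ± 0.08 (adjusted p = 0.630), Il12b by 0.12 ± 0.09 (adjusted p = 0.576), Il27 by -0.12 ± 0.08 (adjusted p = 0.554) and Ebi3 by -0.11 ± 0.12 (adjusted p = 0.754), all in limma. The 95% intervals of these 4 averages over A and C lay between -0.37 and 0.30. For Ebi3 the average joined opposite signs. Its difference was -0.44 in C (95% interval -0.81 to -0.07, adjusted p = 0.491, limma). In A it was 0.22 (-0.15 to 0.59, adjusted p = 0.615, limma). Il23a and Il12b lay near the array medians, where a fall has little room to show.

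Among the genes that read the family, 2 were called after TNFR1 loss, both higher. Of 9 receptor and transducer genes (median difference 0.13, against -0.01 over all genes tested) 2 rose after TNFR1 loss, with 0.708% of all genes called higher. Stat4, the transcription factor activated by IL-12, rose by 1.01 ± 0.09 (adjusted p = 8.19e-05, limma), and Il12rb2, the signalling chain of the IL-12 receptor, rose by 0.44 ± 0.10 (adjusted p = 0.0311). Other genes of the IL-12 receptor and its kinases did not pass, with Il12rb1 at -0.02 ± 0.08 (adjusted p = 0.943), Tyk2 at 0.13 ± 0.08 (adjusted p = 0.532) and Jak2 at 0.38 ± 0.12 (adjusted p = 0.153). In population C, Stat4 lay at 7.96 to 8.55 in hosts without TNFR1, against 6.10 to 6.92 in hosts with it. In population A it lay at 6.87 to 7.10 without TNFR1, against 6.20 to 6.95 with it, and these ranges overlapped. The effect on Stat4 was smaller in A than in C, with a difference, A minus C, of -1.28 ± 0.18 (adjusted p = 0.0104, limma). Il12rb2 lay at 6.27 to 6.85 in A and 5.87 to 6.19 in C without TNFR1, against 5.84 to 6.38 in A and 5.53 to 5.62 in C with it. Its call was lost without 10 of the 16 arrays in turn.

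**Figure D4:**
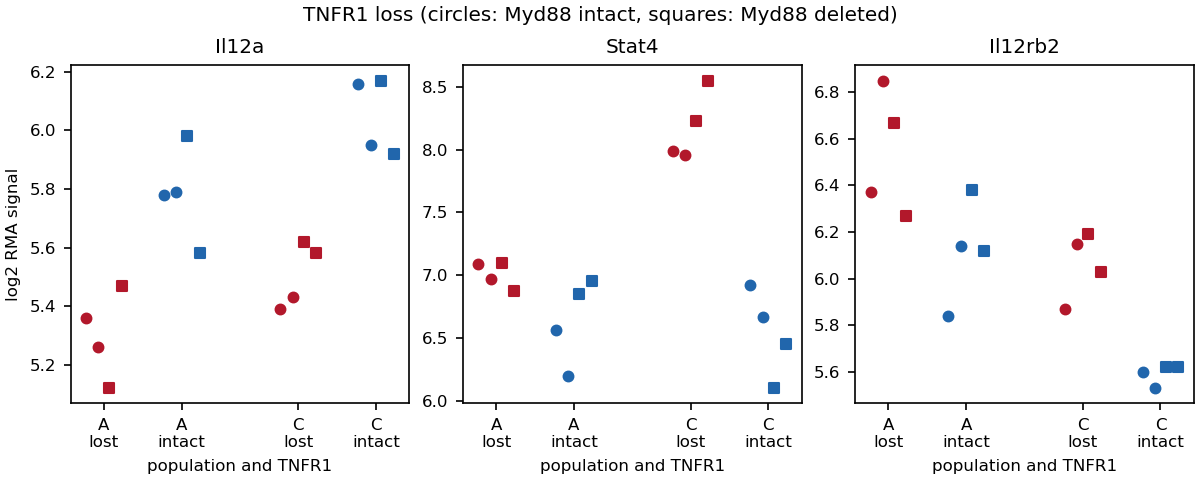
Log2 RMA signal of Il12a, Stat4 and Il12rb2 on the 16 sorted arrays by population and TNFR1, with TNFR1-deficient arrays in red left of arrays with TNFR1 in blue. Circles have Myd88 intact and squares have it deleted. Il12a is lower without TNFR1 in both populations, and Stat4 stands highest in TNFR1-deficient population C, at 7.96 to 8.55.

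Of 20 transcription factors 2 rose after TNFR1 loss, Irf4 (0.76 ± 0.11, adjusted p = 0.00265, limma), an interferon regulatory factor of dendritic cells and lymphocytes, and Batf3 (0.43 ± 0.07, adjusted p = 0.00692), which is needed for cross-presenting dendritic cells. Both were called in C alone, Irf4 at 1.23 (adjusted p = 0.000823, limma) and Batf3 at 0.67 (adjusted p = 0.00434). Neither was called in A, at 0.285 (adjusted p = 0.431) and 0.18 (adjusted p = 0.470). The difference of effects, A minus C, was not called for Irf4 (-0.945, adjusted p = 0.191) or Batf3 (-0.49, adjusted p = 0.446). Among other cytokines 1 of 10 rose, Il6 (0.61 ± 0.13, adjusted p = 0.0227), and 1 fell, Il1a (-0.69 ± 0.12, adjusted p = 0.00934). The Il6 call was lost without 6 of the 16 arrays in turn. In the IL-6 group Il6 was the 1 of 5 called. Of 6 products downstream of the family 0 passed in limma, 1 had an unadjusted p under 0.05, and the 2 of smallest p were Il18rap (0.59 ± 0.22, adjusted p = 0.233) and Il10 (-0.18 ± 0.12, adjusted p = 0.555).

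Markers of cell state moved as well. Of 11 dendritic cell markers 3 were higher without TNFR1 (Batf3, Ccr7 and Fscn1) and 1 was lower (Itgax). Their mean lay at 6.88 to 7.09 in C without TNFR1, against 6.53 to 6.60 in C with it, and at 6.10 to 6.23 in A without TNFR1, against 6.21 to 6.46 in A with it. Of 12 mature macrophage markers 5 were lower, led by Gpnmb (-1.35 ± 0.19), with a mean of 9.20 to 9.45 in C without TNFR1, against 9.50 to 9.66 with it, and of 7.11 to 8.13 in A without TNFR1, against 7.46 to 9.16 with it. Of 4 natural killer markers tested 1 was higher, Klrd1, while the defining markers Gzma and Eomes were above the filter on 0 arrays. Of 11 T lymphocyte markers 0 were called (1 at an unadjusted p under 0.05). Of 8 monocyte markers 0 were called, 6 had an unadjusted p under 0.05, and their median difference was 0.39. The part of other cells in the Il12a and Stat4 values was not tested.

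Deletion of Myd88 by Tie2-Cre left 0 of 5 members called in limma over A and C, and 0 at an unadjusted p under 0.05, against 17.9% of all genes at that unadjusted p. Among all genes 0.412% were called lower and 2.44% higher. Il23a, the member with the largest difference in the bead-enriched experiment, had 5.40 and 5.44 in A and 5.46 and 5.47 in C of the double knockout and 5.66 and 5.35 in A and 5.22 and 5.59 in C with Myd88 alone deleted. It had 5.42 and 5.35 in A and 5.50 and 5.75 in C of TNFR1-/- hosts, and 5.83 and 5.62 in A and 5.71 and 5.64 in C of WT hosts. The ranges with and without Myd88 overlapped. The difference was -0.15 ± 0.08 (adjusted p = 0.348, limma), with a 95% interval of -0.33 to 0.02. Il23a lay at 5.22 to 5.83, WT hosts included, near the array medians of 5.31 to 5.50, where a fall has little room to show. The same limit holds for Il12b, at 4.72 to 5.56. Il27 differed by -0.13 ± 0.08, Il12b by -0.11 ± 0.09, Il12a by 0.04 ± 0.08 and Ebi3 by 0.02 ± 0.12, with adjusted p between 0.437 and 0.954. The 2 experiments differ in chip, in how the cells were taken and in where Myd88 was deleted, so their differences stand side by side untested.

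Other genes of the pathway lists were called over A and C in the same sorted arrays. Of 20 transcription factors 3 fell and 0 rose. Nfkbiz fell by 1.17 on the log2 scale, with a standard error of 0.15 (adjusted p = 0.00225, limma). By population its difference was -1.205 in A (adjusted p = 0.00680) and -1.13 in C (adjusted p = 0.145, limma). In C alone, 1 gene of the 16524 was called higher and 2 lower after Myd88 deletion. Irf7 fell by 0.53 and Irf1, which lost its call without 12 of the 16 arrays in turn, fell by 0.50 (adjusted p = 0.0109 and 0.0478). Of 10 other cytokines 3 fell, Tnf (-0.83 ± 0.19), Il6 (-0.61 ± 0.13) and Ptgs2 (-0.40 ± 0.10), with adjusted p of 0.0324, 0.0230 and 0.0429. These 3 calls were lost without 10, 4 and 12 of the 16 arrays in turn. In the IL-6 group Il6 was again the 1 of 5 called, and of the 6 downstream products Il10 fell (-0.69 ± 0.12, adjusted p = 0.00923). Of 9 receptors and transducers 0 passed in limma and 2 had an unadjusted p under 0.05, with Il12rb1 (-0.20 ± 0.08, adjusted p = 0.206) and Jak1 (0.28 ± 0.12, adjusted p = 0.236) of smallest p. Of 12 mature macrophage markers 7 were higher and 0 lower, led by Folr2 (1.12 ± 0.11), and of 8 monocyte markers 1 was higher and 2 lower. Of 11 T lymphocyte markers 3 were higher. Their part in the members' values was not tested. In the difference of the Myd88 effect between A and C, 0 of 5 members and 0% of all genes were called in limma, and 0 members had an unadjusted p under 0.05, against 9.27% of all genes.

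Between the populations themselves, A minus C over the 4 genotypes, 21.3% of genes were called lower and 11.1% higher. Il12a was lower in A, with a difference of -0.24 ± 0.08 just past the threshold (adjusted p = 0.0471, limma). It lay at 5.12 to 5.98 in A and at 5.39 to 6.17 in C, ranges that overlap widely, and leaving out 1 array kept the call in 4 of 16 cases. The call was also lost with no filter on low values (adjusted p = 0.0518) and with array weights (adjusted p = 0.0631). Il12b differed by -0.20 ± 0.09 (adjusted p = 0.0830), Il27 by 0.16 ± 0.08 (adjusted p = 0.151), Ebi3 by 0.11 ± 0.12 (adjusted p = 0.534) and Il23a by -0.03 ± 0.08 (adjusted p = 0.780). The call of 1 of 5 members is a share below that of all genes called.

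**Figure D5:**
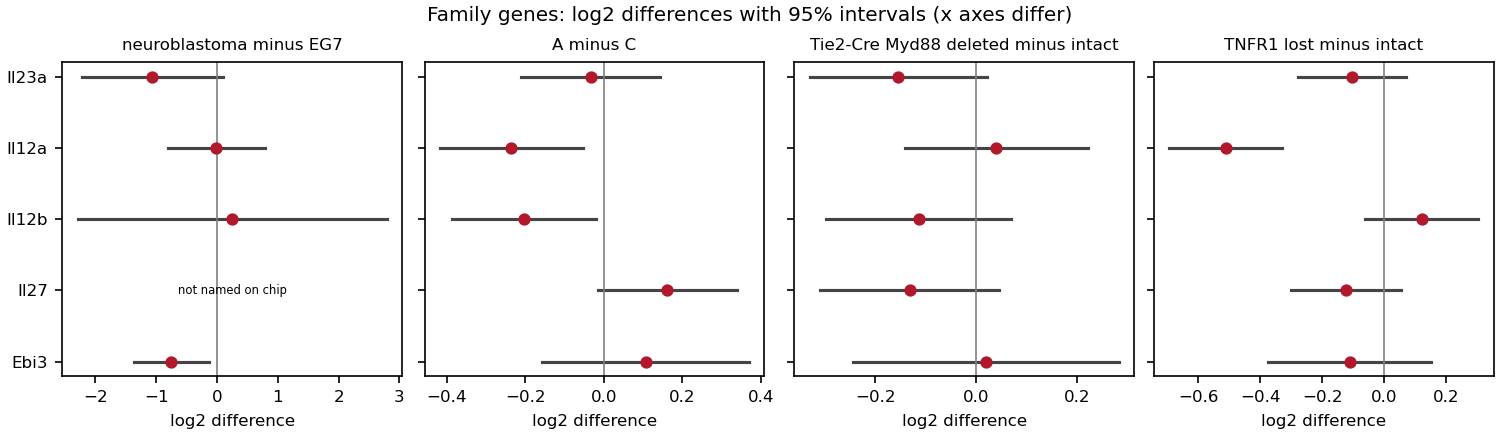
Log2 differences (points) with 95% intervals (lines) of the members in 4 comparisons, neuroblastoma minus EG7, A minus C, Myd88 deleted minus intact and TNFR1 lost minus intact. The horizontal axes differ in scale. The interval of Il12a after TNFR1 loss, -0.69 to -0.33, lies wholly below 0. So do those of Ebi3 in neuroblastoma minus EG7 (-1.37 to -0.14), and of Il12a (-0.42 to -0.05) and Il12b (-0.39 to -0.02) in A minus C.

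Other genes of the pathway differed between A and C. Il10, an inhibitor of IL-12 production, was lower in A (-1.29 ± 0.12, adjusted p = 3.08e-06, limma). So were Irf4 (-0.94 ± 0.11, adjusted p = 1.94e-05) and Irf8 (-0.90 ± 0.16, adjusted p = 0.000745), the second a known activator of Il12b. Of 20 transcription factors 7 were lower in A and 2 higher, among them Fos (-0.49 ± 0.11) and Smad3 (0.60 ± 0.16). Of 9 receptors and transducers 4 were lower and 1 higher. Named by their adjusted p, Il6st, the gp130 chain used by IL-27, differed by -0.98 ± 0.14, Stat4 by -0.54 ± 0.09, Tyk2 by -0.28 ± 0.08 and Il12rb2 by 0.50 ± 0.10. Of 10 other cytokines (median -0.39, against 0.01 over all genes tested) 5 were lower and 0 higher in A, led by Cxcl1 (-1.91 ± 0.12), Il1a (-0.79 ± 0.12), Cxcl2 (-0.57 ± 0.10) and Tnf (-0.76 ± 0.19). In the IL-6 group Osm was the 1 of 5 called, higher in A (0.88 ± 0.20). After a second quantile normalization 3 of the named calls were lost in limma. They were Tyk2 (-0.12, adjusted p = 0.287), Tnf (-0.54, adjusted p = 0.0747) and Fos (-0.25, adjusted p = 0.0545). The Tyk2 call was also lost without 2 of the 16 arrays in turn.

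Of the 6 downstream products 3 were higher in A, Il18rap (0.87 ± 0.22), Ifng (0.37 ± 0.10) and Il18r1 (0.21 ± 0.07), beside the lower Il10. The Il18r1 call was lost without 10 of the 16 arrays in turn, after a second quantile normalization (adjusted p = 0.0850) and with arrays centred on their medians (adjusted p = 0.138). Of 12 mature macrophage markers 9 were lower in A and 1 higher, among them C1qa (-2.61 ± 0.12) and Folr2 (-2.48 ± 0.11), with a mean of 7.11 to 9.16 in A, against 9.20 to 9.66 in C. Of 6 fibroblast markers 4 were higher in A, among them Dcn (2.12 ± 0.15), and of 5 endothelial markers tested 3 were higher, among them Cdh5 (0.90 ± 0.09). Of 11 dendritic cell markers 5 were lower in A and 0 higher, led by Ccr7 (-2.10 ± 0.14). Of 11 neutrophil markers 7 were higher in A and 0 lower, led by Retnlg (5.65 ± 0.17), and of 11 T lymphocyte markers 5 were higher. The part of these cells in the values was not tested.

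Set against WT one genotype at a time, 0 of 5 members passed in either population in limma. Of all genes 5.75%, 3.18% and 0.654% were called in A, and 0.309%, 0.0121% and 0.0726% in C, for the double knockout, Myd88 deletion and TNFR1-/- in that order. At an unadjusted p under 0.05 there were 2, 0 and 1 of 5 members in A, against 24.8%, 20.8% and 18.7% of all genes in the same order. In C there were 2, 0 and 2 of 5 members, against 6.17%, 3.85% and 4.73% of all genes. Il12a was among these members in each TNFR1-deficient genotype of both populations. Il27, the p28 chain, had 7.00 and 7.33 in A of the double knockout, against 7.61 and 7.53 in A of WT hosts. Both double knockout values were below the WT values, as for 22.6% of all genes, and the difference was -0.41 ± 0.17 (adjusted p = 0.148). In C it had 7.20 and 7.08 in the double knockout, against 7.19 and 7.30 in WT hosts, a difference of -0.11 ± 0.17 (adjusted p = 0.998).

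Ebi3 stood on opposite sides of WT in the 2 populations. In A it had 8.13 and 7.59 in the double knockout, 7.92 and 7.88 with Myd88 deleted and 7.66 and 8.18 in TNFR1-/- hosts, against 7.62 and 7.26 in WT hosts. In C it had 7.65 and 7.19 in the double knockout, 7.70 and 7.83 with Myd88 deleted and 7.19 and 7.78 in TNFR1-/- hosts, against 8.07 and 7.98 in WT hosts. All 6 knockout arrays of C were below its WT arrays, and 5 of 6 knockout arrays of A were above its WT arrays. Of all genes 16.9%, 17.8% and 18.9% lay below WT without overlap in C, for the double knockout, Myd88 deletion and TNFR1-/- in that order, and 20.5% and 15.3% lay above WT in A for Myd88 deletion and TNFR1-/-. The differences from WT were 0.42, 0.46 and 0.48 in A, and -0.60, -0.26 and -0.54 in C, for the double knockout, Myd88 deletion and TNFR1-/- in that order. The 3 share their WT arrays. The test of A minus C gave 1.02 ± 0.35 for TNFR1-/- (adjusted p = 0.434), 0.72 ± 0.35 for Myd88 deletion (adjusted p = 0.553) and 1.02 ± 0.35 for the double knockout (adjusted p = 0.357), none past the threshold in limma.

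Over the 16 sorted arrays the members were not alike. The largest correlation between members was 0.455, for Il23a with Il27, and Il12a with Il12b gave -0.172. Il12a was most like Carmil1 (r = 0.873), Rras, Nuak1, Pilra and Procr, though r within groups was only 0.317 for Carmil1. Ebi3 was most like Mat2b (r = 0.854, 0.826 within groups), Stxbp2, Lpcat2, Pla2g7 and Clec12a. Il12b was most like Nfatc2 (r = 0.852, 0.804 within groups), Emc6, Dcxr, Tsfm and Snord47. For Il27 the nearest were Elovl4 (r = 0.873), Clca4a, Gkn3, Vgll3 and Gabrg1, and for Il23a they were Porcn (r = 0.785), Fam83f, Olfr370, Zkscan8 and Nr2f2. The whole span of Il23a on these arrays was 0.61 on the log2 scale, so its correlations rest on small differences.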

How the data were processed

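Probe set signals were deposited on a log2 scale. The submitters' processing notes name RMA and Affymetrix Expression Console 1.1, so the authors' values are background-corrected and quantile-normalized summaries. The set of arrays normalized at once is not stated there. Array medians were 3.84 to 3.93 for the tumour models, 2.95 to 3.03 for the Myd88 hosts and 5.31 to 5.50 for sorted cells, so the 3 experiments were fitted apart. Arrays have no read depth, and their number limits the precision. Within groups, arrays correlated at 0.947 to 0.987, 0.988 to 0.996 and 0.925 to 0.987 in the same order.

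The platform annotation gave probe sets their gene names. Of 45141 probe sets on the HT_MG-430_PM chip 28898 had 1 symbol, 551 several and 15692 none. Of 41345 on the Mouse Gene 2.0 ST chip 23521 had 1 symbol, 1814 several and 16010 none. Each gene was taken at its probe set of highest mean. A gene was tested if it exceeded its array's 40th percentile on no fewer arrays than the smallest group holds, and all members passed. Tests were two-sided moderated linear models of the log2 values, without pseudocount (limma 3.58.1, R 4.3.3), with p adjusted by Benjamini-Hochberg across every tested gene and a call under 0.05. Each bead-enriched fit held its 2 groups, and the 16 sorted arrays were fitted as 8 groups of 2. The fits were tested on simulated data.

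All members and the targeted genes are named, with up to 4 called genes of smallest adjusted p from each pathway list, or else 2 of smallest p, and for each member the 5 genes of highest Pearson r. Rel, Batf, Stat4 and Il12rb2 among these were chosen for figures after their values were seen. The members and lists were chosen with earlier results of these data known. Glioma samples were not analysed here. Alternatives covered filters, probe sets, scaling, array weights, a replicate block and leaving out arrays.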

Additional observations from a re-analysis of the deposited data

Results flagged for a closer look

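Among groups of 5 arrays, Il12b on WT array 4 of the Myd88 experiment (5.17) lay far from the other WT arrays, which lay at 6.40 to 6.80. Tnf on Myd88-/- array 2 (9.70) lay apart from the other Myd88-/- arrays, though that group reached only 9.85. Chance marks about 1 in 20 such groups in this way.

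The effect of TNFR1 loss on Stat4 differed between populations, by -1.28 for A minus C on the log2 scale (adjusted p = 0.0104, limma). All 4 TNFR1-deficient arrays of C were above the 4 others. Ebi3 lay above both WT arrays on every array of A and below both on every array of C, in TNFR1-/- hosts (A minus C 1.02, adjusted p = 0.434) and with Myd88 deleted (0.72, adjusted p = 0.553). Neither Ebi3 difference passed the limma test over all genes.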

How the results depend on the processing

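Each value was recomputed under other filters, probe set choices, scalings, array weights, a replicate block and without each array. Of 661 repeats of the members' differences 603 counted as unchanged, and 29 turned sign, none of them called. A tested difference counted as unchanged if it kept direction and side of the threshold. In the Myd88 hosts, where members carry no test, it counted if it moved by less than the within-group SD. In neuroblastoma against EG7 the count of members called was 1 with array weights (Ebi3, -0.85, adjusted p = 0.0356) and 0 to 2 without single arrays. For A minus C it was 0 with no filter, with array weights, with the replicate block and in each genotype alone, 4 after quantile normalization (adding Il12b -0.28, Il27 0.34 and Ebi3 0.30), 2 after median centring and 0 to 1 without single arrays. After TNFR1 loss it was 0 in population A alone, and in the double knockout of A it was 1 after quantile normalization (Il27, -0.70, adjusted p = 0.0374). The cause of these changes was not tested. The replicate numbers did not pair the arrays (r of same-numbered deviations -0.05 to 0.22, -0.25 to 0.23 and -0.50 to 0.37), and the replicate block also ended the Il12a call for TNFR1 loss in C (0 members called).

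Signs turned as follows. In the tumour models Il12a was 0.078 with array weights. For A minus C, in WT alone Il23a was 0.05 and Ebi3 -0.58, and with Myd88 deleted Il23a was 0.10 and Il12b 0.02. For Myd88 deletion Ebi3 was -0.10 after quantile normalization, -0.024 over the mean of probe sets and -0.16 in C alone, and in A alone Il12a was -0.01 and Il12b 0.0175. For TNFR1 loss Ebi3 was 0.22 in A alone and Il23a 0.005 in C alone. Without single arrays the ranges that cross 0 were -0.36 to 0.24 (Il12a) and -0.70 to 1.46 (Il12b) for the tumour models, -0.08 to 0.0125 (Il23a) for A minus C, -0.055 to 0.0925 (Ebi3) and -0.01 to 0.09 (Il12a) for Myd88 deletion, and -0.17 to 0.35 (Il12b) for the double knockout in A.

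Il12a stayed called after TNFR1 loss without each of the 16 arrays (-0.56 to -0.46), and Il23a in Myd88-/- hosts stayed at -4.38 to -4.17. Of 40 pathway gene calls 27 held in every repeat, and 108 of 934 repeats lost one. Scaling moved the share of calls that were higher, as follows for quantile normalization, median centring and the deposited scale. It was 49.2%, 58.8% and 64.5% in neuroblastoma, 43.7%, 19.3% and 34.2% for A minus C, 68.1%, 93.7% and 85.6% for Myd88 deletion, 60.9%, 90.9% and 75.3% for the double knockout in A, and 35.8%, 67.4% and 56.9% in C. Quantile normalization put the median of all genes in neuroblastoma at -0.12, against -0.01.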
